A study of Mus musculus with 6 samples.

Results

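The genes described here are *1190007I07Rik*, the mouse gene for Brawnin, and 6 assembly factors of respiratory complex III, *Uqcc1*, *Uqcc2*, *Uqcc3*, *Bcs1l*, *Ttc19* and *Lyrm7*. They are 7 of the 56748 genes in the count table, and all 7 passed the filter on low counts that 13888 genes passed. The members were taken by gene name. *1190007I07Rik* had been picked because its p was the smallest among genes with higher expression in transgenic hearts. Its difference between the groups is therefore described below without a test. The 6 factors were picked by what they do, but with earlier results of these data known.

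RNA-seq was performed on heart tissue of 3 Pontin cTG mice and 3 wildtype (WT) littermates, with 1 library per heart. The transgene of Pontin cTG mice is human Pontin cDNA with a flag tag, driven by the mouse α-myosin heavy chain promoter, which works in cardiomyocytes. The mice were made by pronuclear injection and bred on a C57Bl/6 background. All were males aged 10 weeks when treatment began. Both groups received angiotensin II (Ang-II), a pressor and pro-hypertrophic peptide, over 14 days from a mini-osmotic pump, at 1.5 mg per kg of body weight each day, and no untreated heart was part of the comparison. Whether the transgenic mice came from 1 or several founder lines is not given in the sources used here.

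Complex III passes electrons from ubiquinol to cytochrome c in the inner mitochondrial membrane and pumps protons as it does so, and the beating heart depends on it for most of its ATP. Its assembly starts with cytochrome b, which is made inside the mitochondrion and is received by Uqcc1 and Uqcc2, after which Uqcc3 helps to stabilise the early intermediate. Brawnin is a microprotein of the inner membrane that is needed for complex III assembly. In the last steps Lyrm7 holds the Rieske iron-sulphur protein in the matrix, Bcs1l, an AAA-type ATPase, moves it across the inner membrane into the complex, and Ttc19 helps to clear fragments left from its processing.

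Brawnin is short enough for its whole reading frame to be shown, which makes plain how small the gene product is. In GENCODE M21 on GRCm38, *1190007I07Rik* lies at chr10:82619851-82623228 on the minus strand, and 4 of its 5 coding transcripts share the coding sequence below, which has 204 bases with its stop codon and encodes 67 residues. The transcript shown has 3 exons and 716 bases. Capitals mark the start and stop codons.
1190007I07Rik coding sequence: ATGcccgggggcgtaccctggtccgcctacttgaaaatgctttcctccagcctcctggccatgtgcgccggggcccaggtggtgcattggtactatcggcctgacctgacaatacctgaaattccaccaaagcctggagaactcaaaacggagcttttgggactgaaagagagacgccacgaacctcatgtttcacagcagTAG
The other members encode between 89 (*Uqcc3*) and 418 (*Bcs1l*) residues. Uqcc2 with 136, Lyrm7 with 104 and Uqcc3 with 89 residues are also small proteins, whereas Uqcc1 has 295 and Ttc19 has 365.

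The promoter of *1190007I07Rik* is shown because its mRNA level is the value the comparison turns on. All 7 members had a promoter of 300 bases in RefSeq (GRCm38.p6), reaching from 250 bases before to 50 bases after the annotated start. Both strands were searched for the letters GCGCNTGCG (NRF1 type), CCGGAAG (GABPA type), AAGATGGC (YY1 type), AAGGTCA (ERR type), CACGTG (E-box) and GGAATG (TEAD type), factors known from mitochondrial genes or from the YAP pathway. Capitals mark the matches. Those in *1190007I07Rik*, at chr10:82623179-82623478 on the minus strand, were a pair of E-boxes that begin 205 and 196 bases before the start, 1 TEAD-type match and 1 NRF1-type match that spans the start.
1190007I07Rik promoter: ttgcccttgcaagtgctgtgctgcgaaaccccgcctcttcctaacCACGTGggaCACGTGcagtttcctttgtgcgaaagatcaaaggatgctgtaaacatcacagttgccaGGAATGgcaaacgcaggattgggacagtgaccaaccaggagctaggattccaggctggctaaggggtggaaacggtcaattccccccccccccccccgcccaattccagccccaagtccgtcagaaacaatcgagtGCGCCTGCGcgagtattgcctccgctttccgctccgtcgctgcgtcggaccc
NRF1-type letters were also found in *Uqcc2*, on the other strand, and in *Ttc19*. Their surroundings, at chr17:27133914-27133954 (minus strand) and chr11:62281426-62281466 (plus strand), are set beside that of *1190007I07Rik* at chr10:82623206-82623246 to show that the flanking bases differ.
1190007I07Rik NRF1-type stretch: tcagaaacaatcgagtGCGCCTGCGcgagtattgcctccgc
Uqcc2 NRF1-type stretch: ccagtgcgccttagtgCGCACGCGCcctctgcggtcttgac
Ttc19 NRF1-type stretch: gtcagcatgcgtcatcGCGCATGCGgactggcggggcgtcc
The NRF1-type letters were thus in 3 of the 7 members and in 6.31% of all 32851 promoters of this length. *Bcs1l* held the GABPA-type letters (8.86% of all promoters), *Uqcc2* those of YY1 (2.75%), *Uqcc3* those of ERR (4.72%), *1190007I07Rik* and *Uqcc3* the E-box (7.15%) and *1190007I07Rik* those of TEAD (14.7%). None of the 6 searches found a match in *Uqcc1* or *Lyrm7*, and the searched letters did not overlap each other in any member. The letters to search for were chosen after the sequences had been seen, so the counts beside these shares are no test. The matches are descriptions of sequence, and factor binding was not measured in these libraries.

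Total counts were between 12436822 and 13194038 in WT and between 14584102 and 16888124 in Pontin cTG libraries, and 23.8% to 26.7% of them came from the mitochondrial genome. On the first principal component, which held 48.6% of the variance, Pontin cTG replicate 2 scored 50.9. WT replicate 2 scored 16.2 and the other libraries between -23.1 and -12.9. The methods of the study mention the removal of a library that was an outlier in such an analysis, but do not say which one or from which experiment. The study's figure legend for this comparison reports as many mice in each group as there are libraries here. By that count none of these libraries was the one removed. All 6 were used, and the members are also given without Pontin cTG replicate 2 where it matters. All 8 cardiomyocyte markers were well expressed, with summed normalised counts between 684338 and 790539 among WT and between 659381 and 739986 among transgenic libraries. Their log2 fold changes were above 0 for 3 and below 0 for 5. *Tnni3* (0.30) and *Myl2* (0.24) did not overlap, with higher levels in Pontin cTG hearts, beside 4.7% of all genes. *Actc1* (-0.11) did not overlap in the other direction, beside 3.63%. None of the adipocyte or skeletal muscle markers passed the filter, and of the 4 atrial markers *Myl7* and *Sln* did not either, with 11 and 3 counts over the 6 libraries. The other atrial markers, *Myl4* and *Nppa*, had log2 fold changes of 0.80 (standard error, SE, 0.44) and 1.13 (SE 0.91). *Nppa* encodes ANP, which the study uses as a marker of hypertrophy and reports as reduced in Pontin cTG mice under Ang-II. In these libraries it had 1551, 858 and 1842 normalised counts in WT and 1205, 7716 and 360 in Pontin cTG. Only Pontin cTG replicate 2 lay above the WT range. *Myl4* had 8.81, 21.3 and 23.5 normalised counts in WT and 28.3, 43.7 and 21.7 in Pontin cTG libraries, and the part of atrial tissue in the values of the members was not tested. In tissue RNA, fewer cells of a type and less RNA per cell cannot be told apart. The mouse gene of Pontin, *Ruvbl1*, had 216, 221 and 217 normalised counts in WT and 250, 250 and 240 in Pontin cTG libraries (log2 fold change 0.18, SE 0.12). Reads from the human cDNA need not align to it, so the transgene itself was not measured.

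*1190007I07Rik* expression was 1.57-fold higher in Pontin cTG hearts, and every transgenic library lay above every WT library. TMM-normalised counts, that is, counts scaled to a common library size, were 116, 99.8 and 104 in the WT libraries (replicates in order of number, as everywhere below) and 163, 179 and 160 in the Pontin cTG libraries. The groups did not overlap, and the lowest transgenic heart stood well clear of the highest WT heart. The mean was 106 ± 8.19 for WT and 167 ± 10.1 for Pontin cTG (SD, n = 3 each), and the log2 fold change was 0.65 (SE 0.15). Deposited counts were 105, 89 and 93 in WT and 167, 209 and 185 in Pontin cTG libraries. At these counts the counting error alone is between 6.92% and 10.6% of a value, and the coefficient of variation between mice was 7.69% in WT and 6.02% in Pontin cTG hearts, so the spread between mice was no larger than counting error. These values ranked first by p among genes with higher expression, which is how the gene was chosen, and therefore they do not test it.

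**Figure D1:**
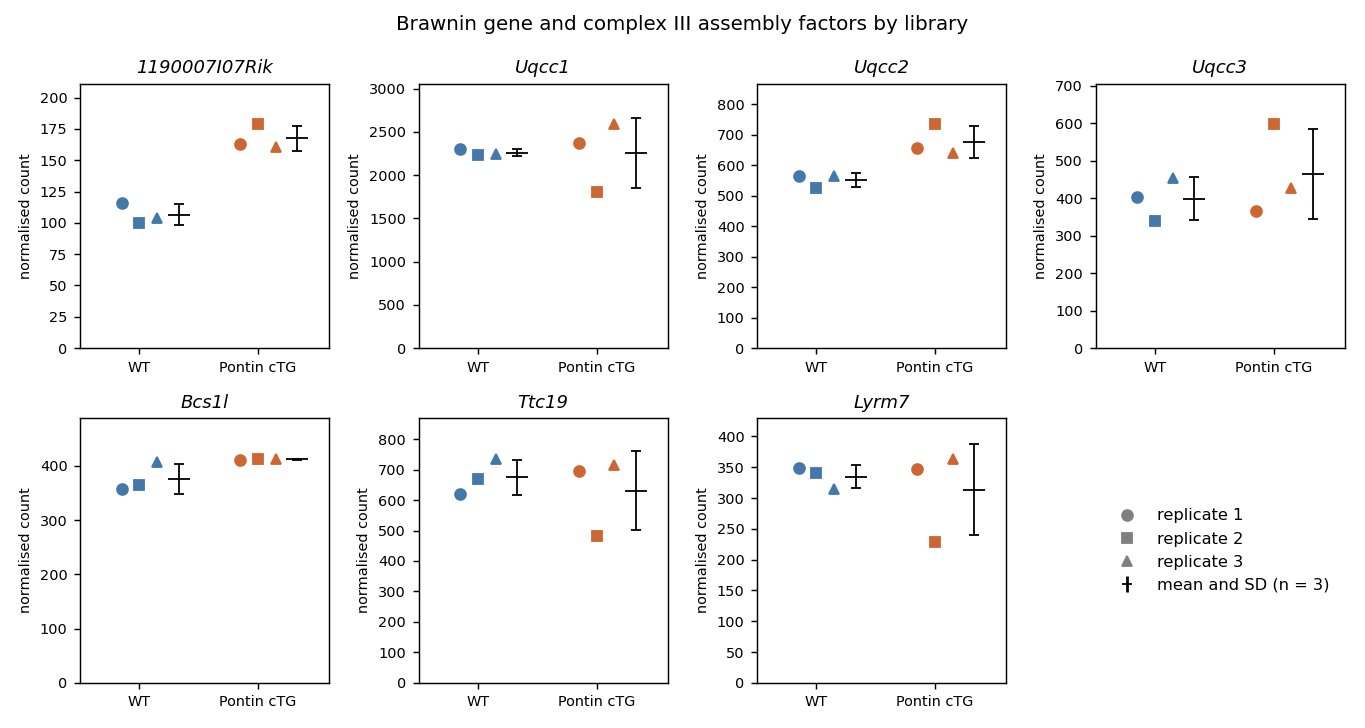
TMM-normalised counts of the 7 members in each of the 6 libraries (blue WT, orange Pontin cTG; symbol shape gives the replicate number; bars are mean and SD, n = 3), each panel with its own axis from 0. *1190007I07Rik*, *Uqcc2* and *Bcs1l* do not overlap between the groups, and Pontin cTG replicate 2 is the lowest library for *Uqcc1*, *Ttc19* and *Lyrm7*.

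The higher level of *1190007I07Rik* kept its direction under every alternative tried, with log2 fold changes between 0.54 and 0.72. These fits reuse the libraries in which the gene was chosen and in which its groups did not overlap. A change of direction was therefore hardly possible, and the kept direction is no test of the difference. Without Pontin cTG replicate 2, which had the highest level of *1190007I07Rik*, the log2 fold change was 0.60 (SE 0.16). Of the 13888 genes tested, 653 (4.7%) had all 3 Pontin cTG libraries above all 3 WT libraries and 504 (3.63%) had all 3 below. An exact permutation test on 3 against 3 hearts cannot give a p under 0.1.

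The 6 assembly factors did not move as 1 group. None of them passed an adjusted p of 0.05 by the quasi-likelihood test of edgeR, adjusted over all genes by Benjamini-Hochberg (0 of 6, adjusted p = 0.999 for each). None of the 13888 genes passed it either (0%), and 285 (2.05%) had an unadjusted p under 0.05. DESeq2 called 1 gene at an adjusted p under 0.05 and gave 219 (1.58%) an unadjusted p under 0.05. Of the 6 factors 1, *Uqcc2*, had an unadjusted p under 0.05 in edgeR and 0 had in DESeq2. The log2 fold change was above 0 for 3 of the 6 factors, beside 50.2% of all genes, and their median was 0.064, beside 0.0013 for all genes tested. Pontin cTG libraries lay above all WT libraries for 2 of the 6, *Uqcc2* and *Bcs1l*, beside 4.7% of all genes. They lay below all of them for 0 of the 6, beside 3.63%. The share above was 9.67% among genes under 1 kb, the class of *Uqcc2*, and 5.92% among genes of 2 to 4 kb, that of *Bcs1l*.

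Among the factors that receive cytochrome b, *Uqcc2* was the member with the second largest difference after *1190007I07Rik*. It had 563, 524 and 566 normalised counts in WT and 655, 735 and 638 in Pontin cTG libraries. The groups did not overlap, with 566 in the highest WT and 638 in the lowest transgenic heart. The means were 551 ± 23.3 and 676 ± 51.4 (SD, n = 3), a log2 fold change of 0.30 (SE 0.12, adjusted p = 0.999 in edgeR). Its binding partner *Uqcc1* had 2305, 2229 and 2246 normalised counts in WT and 2373, 1803 and 2592 in Pontin cTG libraries. WT hearts were tightly grouped, whereas the transgenic hearts lay on both sides of them, and the log2 fold change was -0.0026 (SE 0.16). *Uqcc3*, which acts on the intermediate that follows, had 402, 339 and 454 in WT and 366, 598 and 426 in Pontin cTG libraries. Here the groups overlapped and Pontin cTG replicate 2 alone lay above the WT range, with a log2 fold change of 0.22 (SE 0.20).

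Among the factors that handle the Rieske protein, *Bcs1l* had 357, 365 and 408 normalised counts in WT and 411, 412 and 413 in Pontin cTG libraries. The groups were separated only narrowly, because WT replicate 3 was close to the transgenic hearts, and the log2 fold change was 0.13 (SE 0.12). The chaperone gene *Lyrm7* had 349, 341 and 314 in WT and 348, 229 and 364 in Pontin cTG libraries. Its transgenic hearts spanned the WT range, with Pontin cTG replicate 2 well below all others, and the log2 fold change was -0.096 (SE 0.18). *Ttc19* had 621, 667 and 736 in WT and 696, 482 and 715 in Pontin cTG libraries. Here too Pontin cTG replicate 2 was the lowest of all, while the other transgenic hearts lay within the WT range, and the log2 fold change was -0.097 (SE 0.17). *Ttc19* shares 12026 bases of its span with *Ncor1* on the opposite strand, which had at least 1463 counts in each library. The span includes introns, and how much of the shared part lies in exons was not determined. The kit named in the study's methods does not mark strand, so reads from the shared bases cannot be told apart.

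The members also differ in a property that the choice of genes had not used, gene length. In the deposited table *Uqcc3* (821 bases), *Uqcc2* (837), *1190007I07Rik* (1197) and *Bcs1l* (2192) are the shortest, and *Ttc19* (4675), *Lyrm7* (5050) and *Uqcc1* (6044) the longest. Relative to the mean of the other transgenic libraries, Pontin cTG replicate 2 differed on the log2 scale by -0.46 for *Uqcc1*, -0.55 for *Ttc19* and -0.64 for *Lyrm7*. For the shorter genes it differed by 0.15 (*1190007I07Rik*), 0.18 (*Uqcc2*), 0.60 (*Uqcc3*) and -0.00094 (*Bcs1l*). All 3 long members were therefore lowest in this library, and 3 of the 4 short members were highest in it.

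The same division ran through all genes tested. The Spearman correlation across genes between gene length and a library's deviation from the gene mean was 0.18, 0.18 and 0.11 in WT and 0.084, -0.20 and -0.16 in Pontin cTG libraries, over genes that are not independent replicates. Of the 1534 genes between 1 and 2 kb, the class of *1190007I07Rik*, 71.4% had a log2 fold change above 0 (median 0.12) and in 11% every transgenic library lay above every WT library. Among the 755 genes under 1 kb, with *Uqcc2* and *Uqcc3*, 60.8% were above 0 and 9.67% did not overlap in that direction. The 7546 genes over 4 kb, with *Uqcc1*, *Ttc19* and *Lyrm7*, had 39.0% above 0 and 2.28% not overlapping. In between, 61.1% of the 4053 genes of 2 to 4 kb were above 0 and 5.92% did not overlap. For genes of its length class, the non-overlap of *1190007I07Rik* is thus more common than among all genes.

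**Figure D2:**
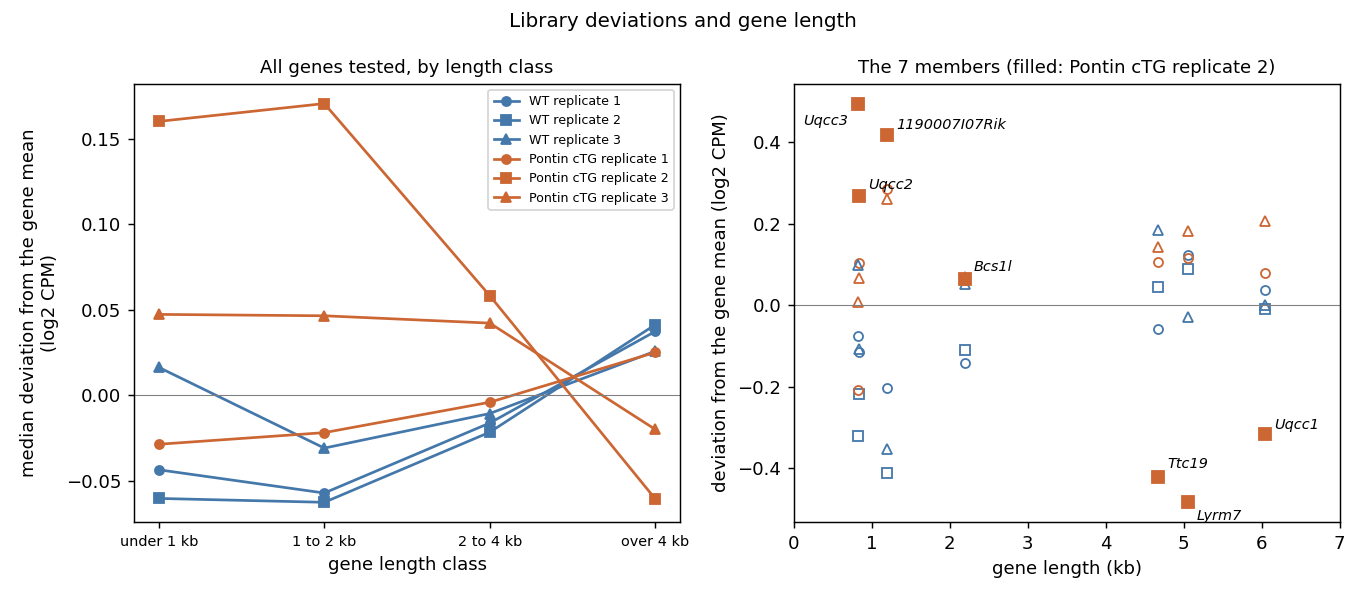
Left, median deviation of each library from the gene mean (log2 CPM) by gene length class over the 13888 genes tested; right, the same deviation for each of the 7 members against gene length in kb, with Pontin cTG replicate 2 filled. In this library genes under 2 kb lie above and genes over 4 kb below their means, and *Uqcc1*, *Ttc19* and *Lyrm7* follow the latter.

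A fit with an offset for the trend of each library with gene length gave a log2 fold change of 0.54 (SE 0.15) for *1190007I07Rik*. In this fit *Uqcc2* had 0.20, *Uqcc3* 0.11 and *Bcs1l* 0.052, each smaller by more than 1.5 times than without the offset. *Uqcc1* had 0.031, *Ttc19* -0.094 and *Lyrm7* -0.085. When Pontin cTG replicate 2 was also left out, a setting chosen after the values had been seen, *1190007I07Rik* remained at 0.54 (SE 0.16), *Uqcc2* was at 0.18 and *Bcs1l* at 0.081, whereas *Uqcc3* was at -0.054 and *Uqcc1*, *Ttc19* and *Lyrm7* were at 0.16, 0.064 and 0.093. In that fit 5 of the 6 factors had a log2 fold change above 0, with a median of 0.087. Without this library and without the offset, 5 of the 6 were above 0 as well, with a median of 0.11. What made the libraries differ with gene length was not tested.

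Levels of different genes are compared as normalised CPM per kb of gene length. By the median over the 6 libraries *Uqcc2* was the highest member with 51.1 (range 44.4 to 62.3), followed by *Uqcc3* with 35.8 (29.3 to 51.7), *Uqcc1* with 26.7 (21.2 to 30.4), *Bcs1l* with 13.3 (11.6 to 13.4), *Ttc19* with 10.4 (7.32 to 11.2), *1190007I07Rik* with 8.18 (5.92 to 10.6) and *Lyrm7* with 4.84 (3.21 to 5.11). The order was the same in 5 of the 6 libraries, and in Pontin cTG replicate 2 *1190007I07Rik* stood above *Ttc19*. The ranges of *Uqcc2* and *Uqcc3*, of *Uqcc3* and *Uqcc1* and of *Ttc19* and *1190007I07Rik* overlapped, and the remaining neighbours in the order were apart. The nuclear-encoded subunits of complex III had medians from 197 (*Uqcrq*) to 580 (*Uqcrfs1*) on this scale, above every member. The deposited length adds up all exons of a gene, so a gene whose transcripts differ gets a lower level per length. The reference transcript in GENCODE M21 was shorter for *Uqcc1* (2633 bases), *Lyrm7* (3431), *Ttc19* (3410), *Bcs1l* (1890), *1190007I07Rik* (716) and *Uqcc2* (500). For *Uqcc3* both lengths were 821 bases. The order of the members can therefore depend on the length used.

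**Figure D3:**
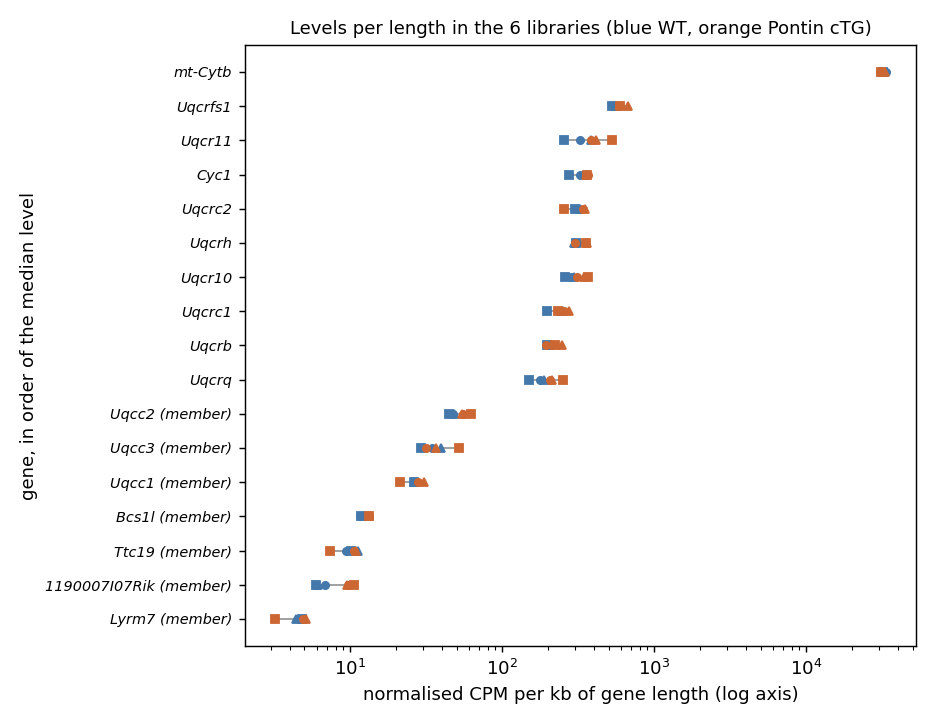
Levels of the 7 members and 10 complex III subunits as normalised CPM per kb of gene length (log axis) in the 6 libraries (blue WT, orange Pontin cTG), in order of the median. The members lie between 3.21 and 62.3, below every subunit.

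Of the 10 subunits of the complex that these factors build, 0 passed the adjusted p in edgeR, 9 had a log2 fold change above 0 and 3 did not overlap, all of them higher in Pontin cTG hearts, beside 50.2% above 0 and 4.7% not overlapping in that direction among all genes and 11% not overlapping among genes of 1 to 2 kb. The median over the 10 was 0.17 on the log2 scale, beside 0.064 for the 6 factors. The largest values belonged to 3 accessory subunits, with 0.46 (SE 0.19) for *Uqcr11*, 0.38 (0.15) for *Uqcrq* and 0.28 (0.14) for *Uqcr10*. *Uqcrq* had 4556, 3890 and 4864 normalised counts in WT and 5311, 6475 and 5489 in Pontin cTG libraries, so its groups did not overlap. *Uqcr11* had 2946, 2302 and 3469 in WT and 3458, 4774 and 3734 in Pontin cTG libraries, where the lowest transgenic and the highest WT heart were almost level. At an unadjusted p under 0.05, edgeR gave 2 of the 10 (*Uqcr11* and *Uqcrq*), beside 2.05% of all genes, and DESeq2 gave 3, beside 1.58%.

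The other subunits had log2 fold changes between -0.030 and 0.18. Cytochrome c1 (*Cyc1*) had a log2 fold change of 0.18 (SE 0.14) and the Rieske protein gene *Uqcrfs1*, the cargo of Lyrm7 and Bcs1l, 0.17 (0.13). Cytochrome b (*mt-Cytb*), which Uqcc1 and Uqcc2 receive, had -0.030 (0.11). The core proteins *Uqcrc1* and *Uqcrc2* had 0.16 and 0.0033, and the accessory *Uqcrh* and *Uqcrb* 0.16 and 0.11. Most of these genes are short, with a median length of 1300 bases beside 4318 for all genes tested, and with the gene length offset their median was 0.082 and 8 of the 10 were above 0. The value of *1190007I07Rik* was above that of each of the 10 subunits with and without the offset, but the gene had been chosen for its difference in this comparison.

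**Figure D4:**
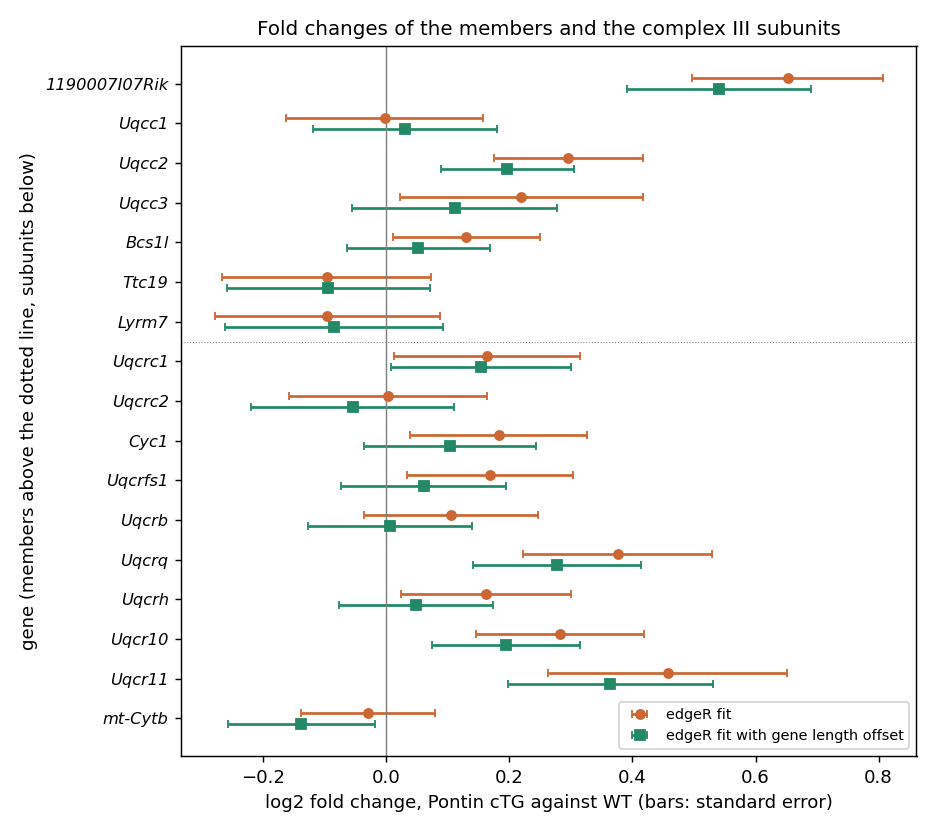
Log2 fold changes of the 7 members and the 10 complex III subunits between Pontin cTG and WT hearts (points; bars are the standard error, n = 3 per group), from the edgeR fit (orange) and from the same fit with a gene length offset (green). *1190007I07Rik* has the largest value in both fits, 0.65 and 0.54, and most subunits lie above 0.

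Genes that act beside these factors were counted in lists by function, and 0 genes in any list passed the adjusted p in edgeR. Beside each count of genes above 0 or not overlapping stand the shares over all genes tested, 50.2% above 0 and 4.7% not overlapping with higher levels in Pontin cTG hearts, and the median of all genes, 0.0013. Of 15 tested genes of complex III maturation and supercomplexes, 11 had a log2 fold change above 0 (median 0.15) and 3 did not overlap, all higher: *Higd2a*, *Phb* and *Stoml2*. With the gene length offset 12 of the 15 were above 0, with a median of 0.065. The highest of the 15 was *Smim4*, another small complex III assembly protein, with 0.30 (SE 0.22), followed by *Higd2a*, a supercomplex factor, with 0.24 (0.12). *Smim4* had 84.8, 71.8 and 111 normalised counts in WT and 94.7, 128 and 107 in Pontin cTG libraries, and its groups overlapped. The lowest were *Hccs*, which attaches haem to cytochromes c and c1, with -0.12 (0.18) and *Nfs1*, the cysteine desulphurase of iron-sulphur cluster synthesis, with -0.047 (0.16). Of 8 tested microproteins of mitochondria, 7 were above 0 (median 0.15) and 2 did not overlap, *Atp5mpl* with 0.33 (0.14) and *Atp5md* with 0.26 (0.15), both small ATP synthase subunits. With the gene length offset 5 of the 8 were above 0, with a median of 0.055. *Smim26* was second in this list with 0.29 (0.16), and *Pigbos1* (-0.030) and *1810058I24Rik* (0.00076) were lowest.

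Assembly factors of the other complexes had medians between 0.013 and 0.062, to be read against the same shares over all genes. For complex I, 11 of 17 were above 0 (median 0.062) and 3 did not overlap, all higher, with *Ndufaf8* at 0.33 (SE 0.15) and *Ndufaf2* at 0.25 (0.13) highest and *Acad9* at -0.18 (0.18) and *Tmem186* at -0.14 (0.15) lowest. With the gene length offset 10 of the 17 were above 0 (median 0.024). The 4 complex II factors had 2 above and 2 below 0 (median 0.013), from *Sdhaf4* at 0.19 and *Sdhaf1* at 0.15 to *Sdhaf2* at -0.12 and *Sdhaf3* at -0.14. Of 21 tested complex IV factors, 15 were above 0 (median 0.058) and 4 did not overlap, all higher, with *Coa3* at 0.29 (0.14) and *Cox14* at 0.26 (0.14) highest and *Coa5* at -0.26 (0.22) and *Taco1* at -0.35 (0.25) lowest. With the offset 12 of the 21 were above 0 (median 0.023). Of 5 ATP synthase factors 3 were above 0 (median 0.049), and *Fmc1* did not overlap, with 0.40 (0.14), followed by *Tmem242* with 0.18 and, at the lower end, *Atpaf1* with -0.050 and *Tmem70* with -0.053. With the offset 2 of the 5 were above 0 and the median was -0.025.

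The 3 nearest tested genes on each side of *1190007I07Rik* were looked at, and none of the 6 had all Pontin cTG libraries above all WT libraries. *Tdg*, a DNA repair glycosylase gene that lies 6600 bases away in the deposited coordinates and is the nearest tested gene, had 195, 210 and 188 normalised counts in WT and 192, 208 and 217 in Pontin cTG libraries (log2 fold change 0.059, SE 0.13). The next genes on that side had 0.023 (*Glt8d2*) and -0.16 (*Hcfc2*). On the other side *Zfp938* had -0.096, *Gm15608* 0.22 and *AU041133* -0.77 (SE 0.34). The groups of *AU041133* and *Hcfc2* did not overlap, with the lower levels in Pontin cTG hearts. Among all genes tested 3.63% did not overlap in that direction and 4.7% in the other. No other gene in the table overlaps the span of *1190007I07Rik*.

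The gene whose level was most like that of *1190007I07Rik* over the 6 libraries was *Selenoh*, a selenoprotein gene, with a Pearson r of 0.993 in log2 CPM among 9073 genes with a mean of at least 3 on that scale. It had 133, 126 and 126 normalised counts in WT and 145, 148 and 146 in Pontin cTG libraries, the same order of groups with a much smaller difference (log2 fold change 0.19). *Ino80e*, a subunit gene of the INO80 chromatin remodelling complex that also holds Pontin, followed with r = 0.978, and had 106, 105 and 102 in WT and 139, 154 and 134 in Pontin cTG libraries (0.45, SE 0.16). Next came *Nsmce1* (r = 0.976), *Rabac1* (0.969) and *Rhbdd3* (0.966). In all, 76 genes had an r above 0.9, over 6 points that fall into 2 groups. With group means removed, r was 0.92 for *Selenoh*, 0.66 for *Ino80e*, 0.77 for *Nsmce1*, 0.46 for *Rabac1* and 0.84 for *Rhbdd3*. By this measure the genes most like *1190007I07Rik* were *Tmem205* (0.984), *Ranbp1* (0.984), *Rps29* (0.981), *Magoh* (0.981) and *Ralgds* (0.979), and 73 genes were above 0.9.

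Markers of other cells are given beside these results for the whole lists. The summed level of 7 fibroblast markers ran from 16023 to 28403 normalised counts among WT and from 14952 to 28497 among transgenic libraries, that of 5 endothelial markers 12148 to 12300 and 10447 to 14930, that of 5 mural markers 13758 to 15659 and 13375 to 13896, and that of 5 erythroid markers 13186 to 22338 and 11695 to 21216. Among the 6 macrophage markers 4 were lower in Pontin cTG hearts (median log2 fold change -0.30), beside 6912 of the 13888 genes tested. Only *Csf1r* did not overlap, with lower levels in Pontin cTG hearts, beside 3.63% of all genes. WT replicate 2 was the highest WT library for each of the 6. The lowest marker, *Cd68*, had 115, 271 and 110 normalised counts in WT and 114, 116 and 72.8 in Pontin cTG libraries. The sum of the 6 ran from 3825 to 6493 among WT and from 3352 to 4809 among transgenic libraries. *Nppa* ran from 858 to 1842 in WT and from 360 to 7716 in Pontin cTG libraries, highest in replicate 2. The part of these cells in the values of the members was not tested.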

How the data were processed

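Reads per gene were deposited by the authors as whole-number counts without normalisation, in 1 table of 6 libraries. The sources disagree on how it was made: the study's methods name Trimmomatic, STAR, mm10 and Gencode M25, and the submitters' processing notes name fastp, HISAT2, featureCounts, DESeq2 and GRCm39 (mm39). Of 52073 genes shared with GENCODE M21 (GRCm38), 1472 have the same coordinates in both, so positions printed with sequences are GRCm38 from M21 or RefSeq, and deposited coordinates served only for distances and overlaps.

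edgeR 4.0.16 in R 4.3.3 was used to filter genes (filterByExpr, minimum count 10), to scale libraries (TMM) and to compare genotypes (robust glmQLFit and glmQLFTest, no other covariate). Benjamini-Hochberg adjustment ran over 13888 genes (common biological coefficient of variation 0.197). Total counts per library were 12436822 to 16888124, and precision also rests on the spread between 3 hearts per group. Alternatives were DESeq2 1.42.0, limma-voom with sample quality weights (limma 3.58.1), other scalings and filters, a replicate block, a gene length offset (lowess of each library's deviation on log length, span 0.3) and leaving out each library. No pair of libraries agreed within sampling noise (chi-square per gene at least 5.24). Same-numbered libraries had correlations of deviations of 0.077, 0.43 and 0.19. Different-numbered libraries were not compared in this way, so structure shared by number cannot be judged from these values. The number is not stated to mark a litter or batch, so the libraries were treated as unpaired. Each test was checked on simulated counts beforehand. Age and sex come from the study's methods, and p-values measure the spread between these hearts only.

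The genes named are the 7 members, *Ruvbl1*, all complex III subunits, the 2 highest and 2 lowest genes of each functional list, the genes most like and nearest to *1190007I07Rik*, and the genes that overlap a member. Members and lists were chosen with earlier results of these data known, and the promoter motifs after the sequences had been seen. Genes named because their groups did not overlap were picked with their values in view.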

Additional observations from a re-analysis of the deposited data

How the results depend on the processing

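Over 11 alternatives, not counting libraries left out, the log2 fold change of *1190007I07Rik* ran from 0.54 to 0.69. It kept its direction, in the same libraries in which the gene had been chosen. The lowest, 0.54, came from the gene length offset with all libraries and from that offset without Pontin cTG replicate 2. The latter setting was chosen after the values had been seen. Leaving out each library in turn gave 0.60 to 0.72 for *1190007I07Rik*, 0.0073 (without Pontin cTG replicate 3) to 0.11 (without replicate 2) for the median of the 6 factors and 0.11 to 0.21 for that of the 10 subunits, whose median was 0.082 with the gene length offset. *Uqcc2* and *Bcs1l* stayed above 0 under every alternative. Their groups did not overlap in these same libraries, so the kept direction is no test of a difference. The adjusted p of the 6 factors was between 0.844 and 0.9999 over all alternatives.

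Genes at an adjusted p under 0.05 numbered 0 in edgeR, 1 in DESeq2 and 3 without a filter on low counts, in limma-voom with sample quality weights and with the gene length offset without Pontin cTG replicate 2. Leaving out each library gave 0 to 3, with 3 without Pontin cTG replicate 2. With the replicate number as a block, the count was 0, *1190007I07Rik* was at 0.65 and 499 genes had an unadjusted p under 0.05 (285 without the block); the block changed no call.

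*Uqcc1*, at -0.0026, turned to 0.018 when scaled by library size, 0.0034 when each library had to have 10 counts, 0.072 in limma-voom with sample quality weights, 0.031 with the gene length offset and 0.16 with that offset without Pontin cTG replicate 2, and ran from -0.11 to 0.14 as libraries were left out. In limma-voom with these weights, which changes the method and the weight of each library together, *Uqcc3* was at -0.035, *Ttc19* at 0.060 and *Lyrm7* at 0.020. With the gene length offset and without Pontin cTG replicate 2 they were at -0.054, 0.064 and 0.093. As libraries were left out they ran from -0.0061 to 0.37, from -0.20 to 0.065 and from -0.22 to 0.088, and each turned without Pontin cTG replicate 2. The cause was not tested. With 89 to 209 counts per library, *1190007I07Rik* is the member with the largest counting error.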
